A study of Mus musculus with 9 samples.

Results

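Chromatin contacts marked by H3K27ac were compared between thymocytes of NOD and BL6 mice, using 4 of the 9 samples of a HiChIP series. HiChIP ligates DNA ends that lie close together in the nucleus and then immunoprecipitates the chromatin, so that each read pair reports a contact near the chosen protein or mark. Members were taken by the antibody field of the labels, which names H3K27ac for 2 libraries from C57BL/6J (BL6) and 2 from NOD/ShiLtJ (NOD), the strain that develops autoimmune diabetes spontaneously. All 4 came from CD4+ CD8+ (double-positive) thymocytes sorted by flow cytometry, with MboI as the restriction enzyme and no treatment. The labels call the 2 libraries of each strain biological replicates. The age, sex and number of the mice are not given in the sources used here. The other 5 samples were precipitated with an antibody to the cohesin subunit Smc1, and they serve below only as reference. They comprise 2 technical replicates from each strain and 1 F1 library, from NOD crossed with C57BL/6. For the H3K27ac samples, the antibody field stands against the titles and the extraction text, both of which name Smc1. The NOD tables were mapped to the NOD genome and shifted to reference coordinates, so that strain and mapping genome cannot be told apart in these 4 libraries.

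H3K27ac is acetylation of a lysine in the tail of histone H3, a mark that lies over active promoters and enhancers. Contacts between such marked sites are widely used to connect enhancers with the genes they may act on. Double-positive thymocytes are the stage at which the T cell receptor alpha chain is assembled and receptors are first tested against self-peptides on MHC molecules, and genes of the CD3 complex, the coreceptors and the recombinase are active there.

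Of the places the results turn on, 6 upstream sequences are given here from RefSeq (build GRCm38.p6), 5′ to 3′, to show what kind of sequence lies under them. Capitals mark 3 motifs searched on both strands: TGTGGT (the core bound by RUNX factors), CAGCTG (an E-box) and GGGCGG (a GC box). Klra9 (chr6:130193113-130193362, minus strand) stands for a cluster of natural killer receptor genes with contacts mainly in NOD. Cd3g (chr9:44980432-44980681, minus strand) and Cd3d (chr9:44981536-44981785, plus strand) are divergent CD3 genes whose starts lie 1354 bases apart under 1 anchor that was among the deepest in all 4 libraries. Cxcr4 (chr1:128592300-128592549, minus strand) and Egr2 (chr10:67535249-67535498, plus strand) had fewer contacts in NOD. The stretch between the divergent starts of Tap1 and Psmb9 (chr17:34187331-34187555, given on the strand of Tap1) is 225 bases long and belongs to antigen-processing genes with more contacts in NOD.
Klra9: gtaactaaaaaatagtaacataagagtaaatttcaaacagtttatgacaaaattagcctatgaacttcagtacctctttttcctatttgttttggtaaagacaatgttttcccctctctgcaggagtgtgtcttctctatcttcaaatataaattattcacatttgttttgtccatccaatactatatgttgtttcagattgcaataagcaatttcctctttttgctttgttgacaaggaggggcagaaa
Cd3g: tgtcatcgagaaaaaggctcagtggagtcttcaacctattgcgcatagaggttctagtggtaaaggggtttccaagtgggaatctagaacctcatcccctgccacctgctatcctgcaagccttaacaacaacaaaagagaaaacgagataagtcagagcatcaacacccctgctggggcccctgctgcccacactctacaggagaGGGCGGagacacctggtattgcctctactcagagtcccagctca
Cd3d: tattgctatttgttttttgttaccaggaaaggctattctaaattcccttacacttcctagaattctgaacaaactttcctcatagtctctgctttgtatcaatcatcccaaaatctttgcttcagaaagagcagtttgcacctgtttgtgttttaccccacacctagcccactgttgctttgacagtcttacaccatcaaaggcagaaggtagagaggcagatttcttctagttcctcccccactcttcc
Cxcr4: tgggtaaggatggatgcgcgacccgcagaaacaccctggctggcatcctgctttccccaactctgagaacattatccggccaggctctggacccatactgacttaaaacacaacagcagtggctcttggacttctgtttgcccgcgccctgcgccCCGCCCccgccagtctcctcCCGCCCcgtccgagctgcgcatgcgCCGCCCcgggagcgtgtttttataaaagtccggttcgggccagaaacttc
Egr2: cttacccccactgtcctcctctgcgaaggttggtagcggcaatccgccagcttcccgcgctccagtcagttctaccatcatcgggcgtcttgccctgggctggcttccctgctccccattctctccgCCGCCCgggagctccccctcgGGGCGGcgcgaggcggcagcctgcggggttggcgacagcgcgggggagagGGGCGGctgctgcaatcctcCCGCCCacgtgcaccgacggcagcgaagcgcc
Tap1-Psmb9: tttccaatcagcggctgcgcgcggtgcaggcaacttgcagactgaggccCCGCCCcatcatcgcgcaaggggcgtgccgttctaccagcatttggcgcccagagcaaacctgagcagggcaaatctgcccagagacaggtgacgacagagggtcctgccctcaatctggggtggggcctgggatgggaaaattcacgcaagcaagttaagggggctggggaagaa

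The upstream sequences of Cxcr4 and Egr2 held 3 and 4 GC boxes, those of Cd3g and Tap1-Psmb9 held 1, and those of Klra9 and Cd3d held no match to any of the 3 motifs. Of 32544 distinct RefSeq upstream sequences of 250 bases, 33.0% held a GC box, 14.0% the RUNX core and 13.1% the E-box. An anchor lay over the Tap1-Psmb9 stretch in every library, with 793 and 1082 reads in BL6 and 668 and 1081 in NOD. An anchor lay over the printed Klra9 sequence only in NOD, with 484 and 536 reads. The printed Egr2 sequence belongs to 1 of several annotated starts and lay under an anchor only in the second BL6 library, with 340 reads. The printed Klra9 and Egr2 sequences lie upstream of the start used but within the outer coordinates of their genes.

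The unit of all counts below is the paired-end tag (PET), a read pair that joins both anchors of a listed interaction. Interactions on chromosomes 1 to 19 with midpoints at least 10 kb apart gave 440896 and 1203733 PETs in the 2 BL6 libraries and 381002 and 497697 in the 2 NOD libraries. The tables list an interaction only from 2 PETs, so a gene with none listed was not measured as 0. Libraries that share a replicate number resembled each other in how PETs were spread over chromosomes. Chromosomes 16 to 19 together held 5.10% and 3.62% of the PETs in the first BL6 and first NOD library, against 15.02% and 13.96% in the second of each strain. The means of the strains, 10.1% ± 7.02 (SD, n = 2) in BL6 and 8.79% ± 7.31 in NOD, did not differ beyond this spread (exact permutation test, two-sided, p = 0.667). Levels are therefore given as PETs per 100000 PETs of the same chromosome in the same library, and strain ratios are given within each replicate number as well. Such levels are larger on short chromosomes and are not per length, so they are compared between strains and not between genes.

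**Figure D1:**
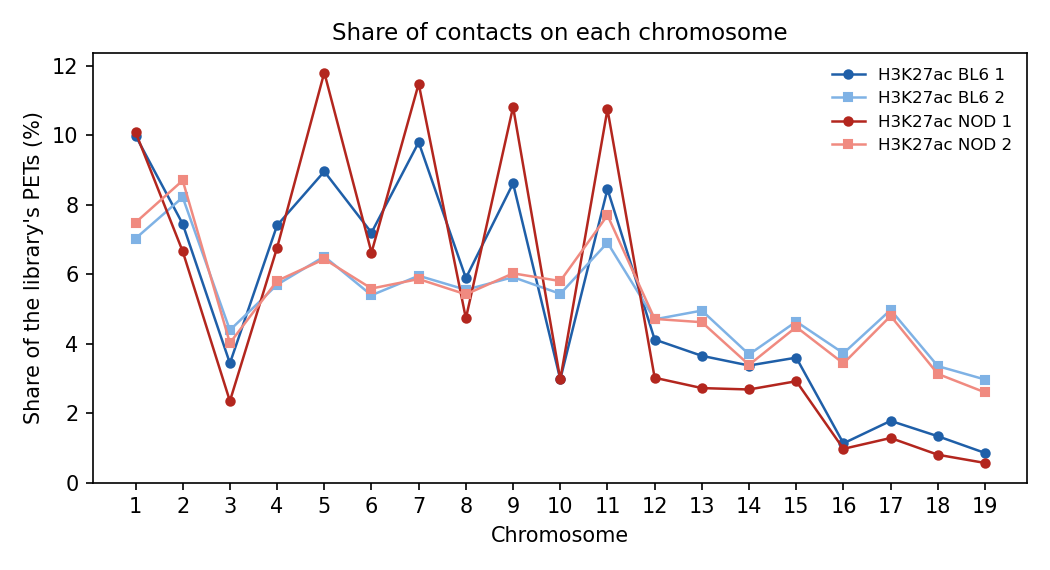
Share of each H3K27ac library's PETs (percent, vertical axis) on chromosomes 1 to 19, 1 line per library. The 2 libraries numbered 1 run together and the 2 numbered 2 run together: on chromosome 17 the BL6 and NOD libraries numbered 1 lie below 2% and those numbered 2 lie near 5%.

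Contact levels per gene followed the replicate number more than the strain, whereas single contacts did not do so throughout. A gene's contacts were the PETs of all interactions that put an anchor in a window of 5 kb on each side of the gene's 2 ends, for 20661 protein-coding genes. Across genes, the correlation of log levels was 0.42 between the libraries numbered 1 and 0.55 between those numbered 2, but 0.21 within BL6 and 0.21 within NOD. These are descriptions across genes, which are not independent replicates. The second BL6 library correlated more closely with the first Smc1 library of BL6 (0.60) than with any H3K27ac library. Of 776019 pairs of 25 kb bins joined in any of the 4 libraries, 1135 (0.146%) were joined in all of them. Pairs joined in both BL6 libraries and neither NOD library numbered 19062, and those in both NOD and neither BL6 library 7665. Pairs in both libraries numbered 1 alone numbered 8405, and those in both libraries numbered 2 alone 28127. Of its pairs the first BL6 library shared 16.7% with the second BL6 library and 8.49% with the first NOD library, while the second NOD library shared 19.8% with the second BL6 library and 7.07% with the first NOD library. The second BL6 library had more PETs than any other, which bears on each of these counts.

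In NOD libraries the deepest anchors sat at gene starts about 2 times as often as in BL6 libraries. Anchors were ranked by the reads the authors listed for them, and the deepest 1% of each library was compared with annotated gene starts, a measure chosen after the data were seen. Within 500 bp of a start lay 18.6% and 17.8% of these anchors in BL6, and 35.6% and 43.8% in NOD. Both NOD libraries were thus above both BL6 libraries, with means of 18.2% ± 0.566 (SD, n = 2) and 39.7% ± 5.80. The difference of 21.5 percentage points had an exact permutation p of 0.333 (two-sided), the smallest that 2 against 2 allows. In the 4 Smc1 libraries of the same strains the share was 5.42% to 7.46%, below every library labelled H3K27ac by its antibody field. Ranked by reads per kb of anchor, the shares were 18.2% and 18.9% in BL6 and 32.4% and 44.4% in NOD. Over all anchors the strains lay close together, at 4.53% and 4.84% in BL6 and 5.75% and 5.52% in NOD.

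**Figure D2:**
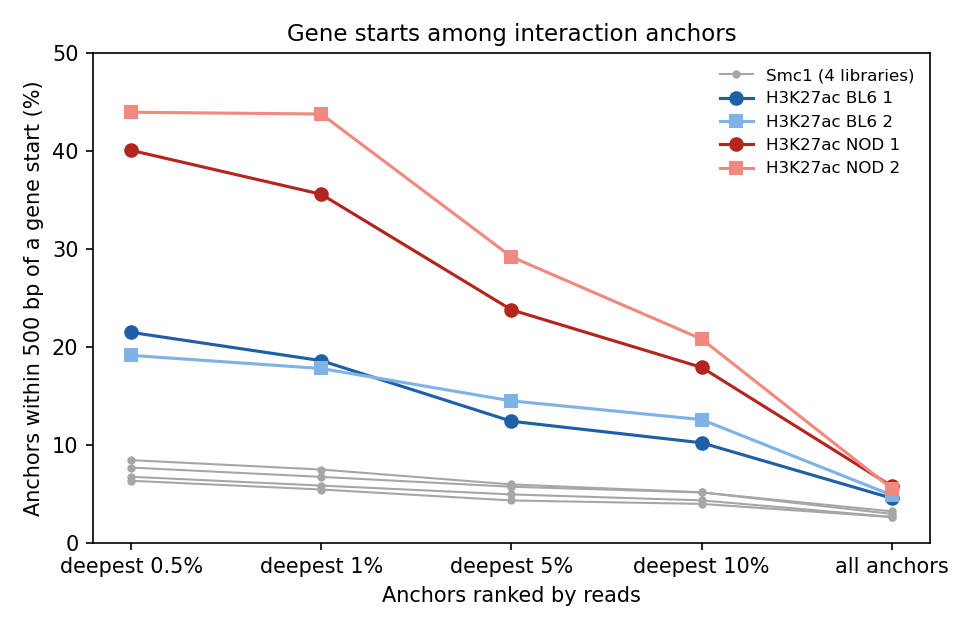
Percent of anchors within 500 bp of an annotated gene start (vertical axis) for anchors ranked by reads, from the deepest 0.5% to all anchors (horizontal axis), 1 line per library. The NOD libraries lie above the BL6 libraries at every rank shown, at 35.6% and 43.8% against 18.6% and 17.8% for the deepest 1%, and the grey Smc1 libraries lie below both.

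Genes of the T cell receptor complex were among those with the deepest gene-start anchors in both strains. Of 16456 genes with a start in the RefSeq table, 276 and 500 had it in a deepest-1% anchor of the 2 BL6 libraries and 552 and 861 in the 2 NOD libraries. Of these, 110 did so in all 4 libraries, 167 in both NOD libraries only and 21 in both BL6 libraries only. Ppp2r5c, a regulatory subunit of protein phosphatase 2A, was the deepest of them on average relative to the median anchor, with 3103 and 3270 reads in BL6 and 2845 and 5160 in NOD. The anchor over Cd3g and Cd3d, which encode the gamma and delta chains of CD3, had 2212 and 2629 reads in BL6 and 1840 and 3711 in NOD. Other genes with a deepest-1% start in all 4 libraries were Cd27 (a costimulatory receptor), Sla2 (an adaptor that dampens receptor signalling), Foxp1 (a forkhead factor of T cell quiescence), Tgfbr2 and Ifngr2 (subunits of the TGF-beta and interferon gamma receptors), Il16, Tnfaip3 (the NF-kB inhibitor A20), Cxcr4 and Ctcf. Cd5, an inhibitory receptor whose surface level follows receptor signal strength, reached the deepest 1% only in NOD, with 854 and 1478 reads in BL6 and 1705 and 2410 in NOD. Cd3e did likewise, with 1188 and 1324 reads in BL6 and 1062 and 1742 in NOD, although its first NOD library had the fewest reads. The rank and not the read count separated the strains there, since the median anchor had 300.0 reads in the first NOD library and 449.0 in the first BL6 library.

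Signalling genes of the T cell receptor had a larger share of their starts in the deepest 1% than all genes in each library. Of 38 signalling genes with a start, 4 and 10 were in the deepest 1% in BL6 and 7 and 12 in NOD (10.5%, 26.3%, 18.4% and 31.6%), against 1.68%, 3.04%, 3.35% and 5.23% of all genes in the same order. Cd3d and Cd3g lie under 1 anchor but count here as separate genes, and both were in the deepest 1% in every library. Of 22 genes of the double-positive stage, 3 and 4 were so in BL6 and 4 and 5 in NOD (13.6% to 22.7%). Of 39 thymocyte transcription factors, 1 and 6 were so in BL6 and 3 and 7 in NOD. Some other lists also lay above all genes in most libraries. Cytokines and their receptors (37 genes) had 8.11% and 13.5% in BL6 and the same shares in NOD, chemokine and migration receptors (19 genes) had 10.5% and 15.8% in BL6 and 5.26% and 15.8% in NOD, and 1 of 9 cohesin and CTCF genes, Ctcf, was so in every library. Histone acetylation genes (25) had 0% and 12% in BL6 and 4.00% and 16.0% in NOD. Lists that did not lie above all genes throughout were the MHC region and the strain-polymorphic families. MHC region genes (26) had 0% in each BL6 library and 0% and 7.69% in NOD. Strain-polymorphic families (48) had 2.08% and 0% in BL6 and the same shares in NOD. The lists of other cell types hold 8 to 15 genes with a start, too few to show a share below that of all genes. Of 13 B cell markers, Pou2af1 was so in the first NOD library (7.69%), of 11 natural killer cell markers Prf1 in the second NOD library (9.09%), and of 15 thymic epithelial markers Ccl25 in the first BL6 and second NOD library (6.67% in each). The lists of myeloid (15), erythroid (8) and mature T cell markers (9) had none. The summed levels of the natural killer list were 676.3 and 808.2 in BL6 and 378.4 and 939.4 in NOD, and those of the myeloid list were 822.5 and 1084 in BL6 and 904.0 and 1030 in NOD. For these and for the B cell list (1082 and 981.8 in BL6, 652.8 and 1034 in NOD) the strains overlapped.

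Among 1 Mb windows let in by their number of PETs, those with few genes had lower H3K27ac levels in NOD. Windows of 1 Mb, chosen as a scale after the data were seen, were compared where the higher library of each replicate number had at least 20 PETs, which 1884 windows met. In 119 of these (6.32%) the level was at least 2-fold lower in NOD within both replicate numbers, in 7 (0.372%) at least 2-fold higher within both, and in 1 (0.0531%) it went opposite ways. Of the 119 windows, 86.6% held at most 5 protein-coding genes, against 40.3% of all windows compared. Median log2 ratios of NOD to BL6, with 0.5 PET added to each library, were -0.62 and -1.05 (replicate numbers 1 and 2) in the 82 windows without a gene. They were -0.49 and -0.57 in the 283 windows with 1 to 2 genes, -0.19 and -0.22 in the 394 with 3 to 5, and -0.04 and -0.07 in the 506 with 6 to 10. In the 391 windows with 11 to 20 genes they were 0.04 and 0.01. The share of windows at least 2-fold lower within both numbers went from 24.4% without genes to 0.256% with 11 to 20 genes. The libraries numbered 1 had similar totals (440896 and 381002 PETs), whereas those numbered 2 differed in depth by more than 2-fold. Smc1 windows without a gene had medians of -0.14 and 0.24, on opposite sides of 0, and no Smc1 window was at least 2-fold lower in NOD in both of its numbers. The Smc1 libraries were deeper, with 1484541 to 2620621 PETs, and are technical replicates. The windows were let in by H3K27ac counts. The Smc1 values therefore cannot show whether the contrast is particular to H3K27ac. In windows without a gene, the F1 library mapped to the NOD genome and to the BL6 genome differed by a median of -0.03.

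The contrast rested on windows with few contacts. Among windows with at least 200 PETs in the higher library of each number, the 352 with at most 5 genes had medians of -0.03 and -0.20, and 6 of them were at least 2-fold lower within both numbers. The 869 richer windows of that depth had medians of 0.03 and 0.01. Windows could enter through either strain, and of the libraries numbered 2 that of BL6 was by far the deeper, so that a sparse window entered more easily when BL6 was high. Chosen instead by at least 200 PETs in each Smc1 library, which uses no H3K27ac count, the 189 windows without a gene had medians of -1.16 and -1.54, and 243 of 2171 windows (11.2%) were at least 2-fold lower within both numbers. Chosen by at least 20 PETs in the NOD library of each number, which favours NOD, the 41 windows without a gene had medians of -0.15 and -0.53, and 14 of 1634 windows (0.857%) were lower. The medians without genes thus kept their direction under these 3 ways of choosing windows, while their size depended on the choice. Sparse windows are also those in which a shallower library falls soonest under the listing limit of 2 PETs, and the part of that limit in the result was not tested. The share of all PETs in windows with at most 5 genes was 29.76% and 26.95% in BL6 and 27.19% and 23.98% in NOD. It was lower in NOD within each number, but the ranges overlapped (exact permutation test, two-sided, p = 0.667).

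**Figure D3:**
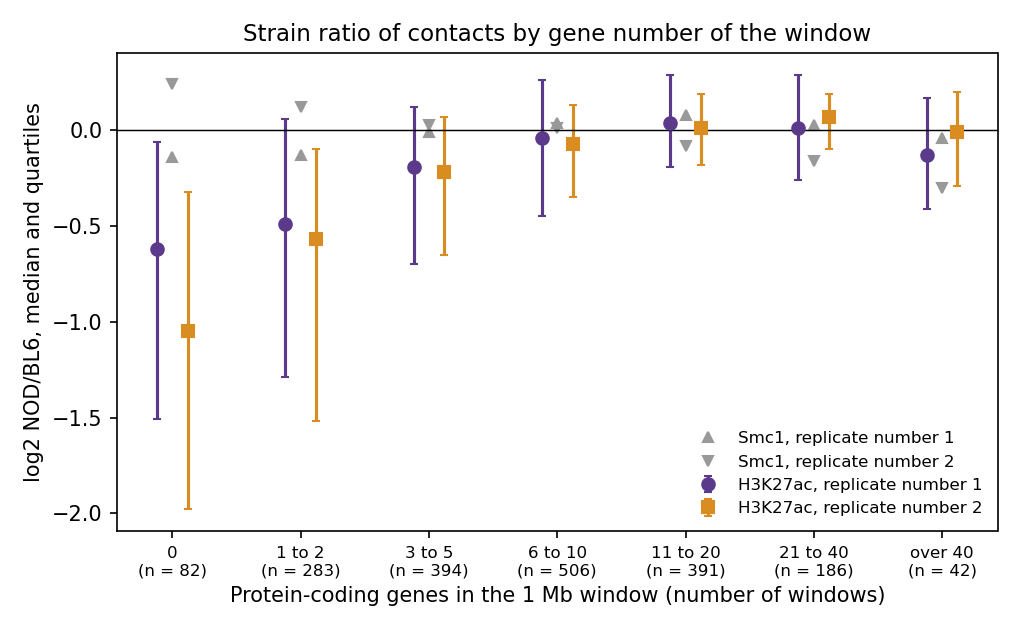
Median log2 ratio of NOD to BL6 contacts (vertical axis) in 1 Mb windows grouped by their number of protein-coding genes (horizontal axis, with the number of windows). Points are medians and bars are quartiles for the H3K27ac libraries of each replicate number, and grey triangles are medians for Smc1. The H3K27ac medians lie lowest without genes, at -0.62 and -1.05, and near 0 from 6 genes upward.

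Low windows formed runs of neighbours in 5 places, among them the Irx genes of chromosome 13. Over chr13:70000001-73000000, which holds Ice1, Adamts16, Irx1 and Irx2, BL6 had 822 and 1576 PETs and NOD had 95 and 114. The Smc1 libraries listed 5306 and 8093 PETs there in BL6 and 4146 and 4090 in NOD, and the F1 library listed 1629 in its BL6 mapping and 1674 in its NOD mapping. Irx1 and Irx2 encode homeobox factors of embryonic patterning. In chr6:137000001-140000000, with Ptpro, Eps8 and Mgst1 among its genes, BL6 had 785 and 1533 PETs and NOD had 186 and 220. In chr6:21000001-24000000, with Kcnd2, Tspan12 and Cadps2, BL6 had 234 and 383 and NOD had 60 and 53. The longest run, chr3:61000001-65000000, had 192 and 260 PETs in BL6 and 37 and 29 in NOD. In these 4 runs both BL6 libraries had more PETs than both NOD libraries. All runs were built from windows already at least 2-fold lower in NOD within both numbers, so lower counts in NOD are no separate result. The counts are PETs and not levels, and the second BL6 library was the deepest. In the fifth run, chr9:26000001-29000000, with Jam3, Opcml and Ntm, BL6 had 1789 and 828 PETs and NOD had 890 and 94, so that the strains overlapped. Outside the runs, the window of Cntn3, a neuronal adhesion gene (chr6:102000001-103000000), had 119 and 29 PETs in BL6, 5 in the first NOD library and none listed in the second. In the gene-free window chr12:68000001-69000000 the BL6 libraries had 31 and 24 PETs and neither NOD library had any, while Smc1 gave 515 and 621 in BL6 and 350 and 428 in NOD.

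Of the 7 windows higher in NOD, 1 held the Ly49 receptor cluster (Klra genes) on chromosome 6, 3 were neighbours with zinc finger genes on chromosome 4, and 1 on chromosome 2 held further zinc finger genes. The remaining 2 were the Sfi1 window on chromosome 11, with single genes such as Drg1, Patz1 and Limk2, and the window of Tmem267 and Nnt on chromosome 13. In the Ly49 window (chr6:130000001-131000000) BL6 had 6 and 31 PETs and NOD 696 and 393. In the zinc finger window of chromosome 2 (chr2:177000001-178000000) BL6 had 2 and 2 PETs and NOD 167 and 116. In chr4:146000001-147000000, with Zfp987, Zfp600 and Zfp992, BL6 had 53 and 41 and NOD 360 and 162. The Smc1 libraries were higher in NOD in all 7 windows too. In the Ly49 window they had 157 and 234 PETs in BL6 and 1197 and 2357 in NOD, and the F1 library had 1252 in its BL6 mapping and 1316 in its NOD mapping. In the Sfi1 window the F1 library had 456 PETs in its BL6 mapping and 20912 in its NOD mapping.

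No gene passed the test between strains. Of 11963 genes tested, 0 (0%) had an adjusted p under 0.05 by edgeR's quasi-likelihood test with Benjamini-Hochberg adjustment, and 115 had an unadjusted p under 0.05. The smallest adjusted p was 0.432, for Klra1. With DESeq2, 30 genes passed, 29 of them higher in NOD. Of 38807 bins of 25 kb, 0 (0%) passed in edgeR, 335 had an unadjusted p under 0.05 and 50 passed with DESeq2. The strain difference in H3K27ac differed from that in Smc1 for 0 of 17742 genes (0%), with 381 under an unadjusted p of 0.05, so no gene below is shown to be particular to H3K27ac. In the Smc1 libraries alone, 16 of 17695 genes (0.0904%) passed.

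Within the replicate numbers, few genes differed the same way by 2-fold. Ratios were taken with 0.5 PET added to each library. Of 5690 genes with at least 20 PETs in the higher library of each number, 155 (2.72%) were at least 2-fold higher in NOD within both numbers, 182 (3.20%) at least 2-fold lower, and 280 (4.92%) went opposite ways. A gene could enter through the strain in which it was higher, so these counts are not independent of the ratios. The correlation of the 2 ratios across these genes was 0.12. Of all 11963 genes tested, both NOD libraries lay above both BL6 libraries for 1762 (14.7%) and below for 1477 (12.3%). Among the 155 higher genes, 46 (29.7%) also had both Smc1 libraries of NOD above both of BL6, against 15.1% of the 5690. Among the 182 lower genes, 28 (15.4%) had both Smc1 libraries of NOD below, against 17.6%. The F1 library differed by over 1.5-fold between its mapping genomes for 19 of the higher genes (12.3%) and 28 of the lower genes (15.4%), against 8.8% of the 5690. With 25 kb bins in place of genes, 356 of 19461 (1.83%) were higher within both numbers, 555 (2.85%) were lower, and 774 (3.98%) went opposite ways.

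**Figure D4:**
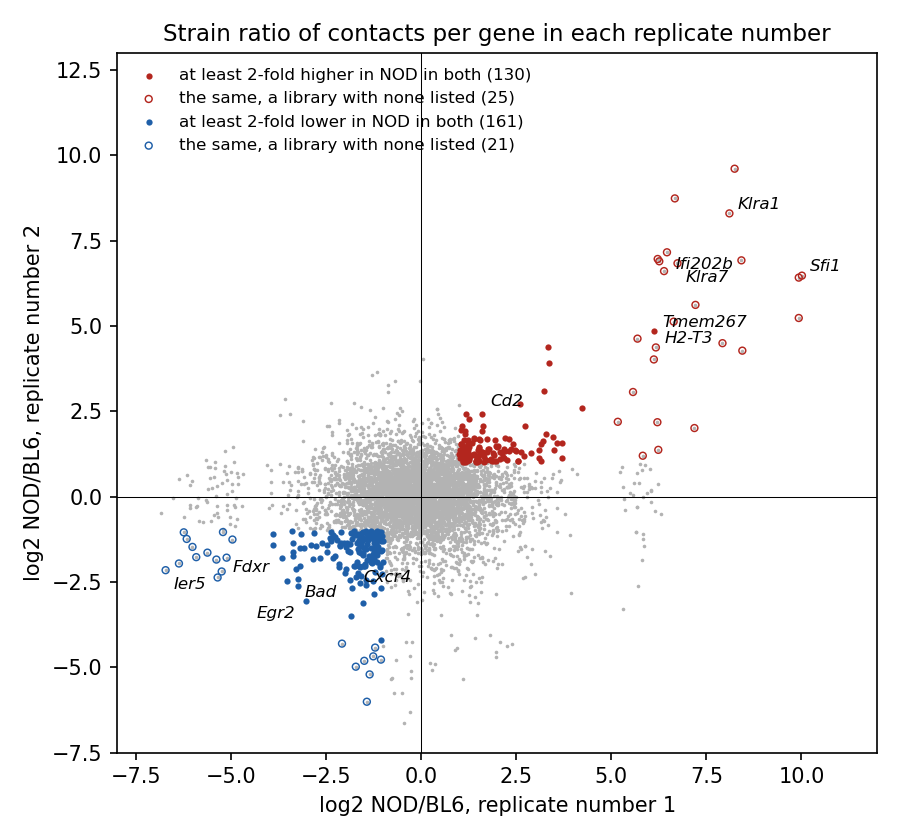
Log2 ratio of NOD to BL6 levels, with 0.5 PET added to each library, for 5690 genes in replicate number 1 (horizontal axis) and number 2 (vertical axis). Red and blue points are at least 2-fold higher or lower in NOD in both numbers; open points have a library with no listed PET, so that their position depends on the added 0.5. Most points scatter around 0 without a common direction, and a small group with Klra1, Sfi1 and Ifi202b lies far to the upper right.

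Several genes of the Ly49 family had contacts only or mainly in NOD. These genes encode lectin-like receptors of natural killer cells that bind MHC class I, and their number differs between mouse strains. Klra1 (chr6:130363918-130386874) had no listed PET in either BL6 library and 109 and 67 in NOD, which are levels of 432.0 and 241.0. Klra7 had none in BL6 and 42 and 24 PETs in NOD, and Klra9 none in BL6 and 30 and 25 in NOD. Klra4 had 0 and 4 PETs in BL6 and 96 and 43 in NOD, and Klra8 had 0 and 2 in BL6 and 20 and 26 in NOD. With fewer PETs, Klra3 (3 and 6) and Klra10 (5 and 9) were listed only in NOD. Klra5 (0 and 2), Klra6 (0 and 4) and Klra17 (2 and 2) were listed only in BL6, and Klra2 in no library. Klra1, Klra4, Klra7, Klra8 and Klra9 were without overlap between strains, and none passed the test (edgeR adjusted p = 0.432 for Klra1, 0.686 for Klra4 and Klra7, 0.736 for Klra9 and 1.00 for Klra8). The contacts joined members of the cluster to each other. The bin of Klra7 and the bin of Klra1, 150 kb apart, were joined by 72 and 60 PETs in NOD and by none listed in BL6. The deepest NOD anchor at Klra1, chr6:130365557-130368714 in the first library, had 2786 reads, and the matching anchor of the second had 3073. It lay at the lower end of the gene, not at an annotated start. The Smc1 libraries of NOD also exceeded those of BL6 at Klra1, with 187 and 530 PETs against 3 and 5. The F1 library listed Klra1 on both mapping genomes, with 146 PETs in its BL6 mapping and 162 in its NOD mapping, and Klra9 with 203 and 205. Ly49 genes are near-identical copies of each other, so reads may be assigned to the wrong member.

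Other genes with contacts nearly confined to NOD were divided by how the F1 library mapped. Ifi202b, an interferon-inducible gene of the Ifi200 cluster that binds DNA (chr1:173962569-173982844), had no listed PET in BL6 and 38 and 31 in NOD, and the F1 library gave 71 in its BL6 mapping and 91 in its NOD mapping. Sp140, a nuclear body protein of leukocytes (chr1:85587491-85645040), had 0 and 2 PETs in BL6 and 43 and 38 in NOD, and the F1 library gave 0 in its BL6 mapping and 263 in its NOD mapping. Mroh2a had none in BL6 and 36 and 21 in NOD, and the F1 library gave 0 and 136. Sfi1, a centrosome protein gene (chr11:3131850-3203347), had 0 and 12 PETs in BL6 and 567 and 512 in NOD, and the F1 library gave 0 and 3767. Tmem267 (chr13:119488086-119610459) had 5 and 29 PETs in BL6 and 247 and 327 in NOD, and the F1 library gave 216 and 431. The adjusted p by edgeR was 0.686 for Ifi202b, Sp140 and Tmem267, 0.736 for Mroh2a and 1.00 for Sfi1. At Sp140, Mroh2a and Sfi1 a single library of 1 cross thus gave contacts on the NOD genome only, whereas Ifi202b and the Ly49 genes were listed on both. The 100 kb around Sfi1 held 6.76% and 7.42% of the NOD PETs of chromosome 11, against 0.0134% and 0.00361% in BL6, which lowers the NOD level of every other gene on that chromosome by about that share.

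Of the genes of the MHC region, which include those that present peptides to T cells, 4 were at least 2-fold higher in NOD within both numbers. Others had fewer PETs in NOD. The list holds 30 genes found in the annotation, with a median level of 38.3 and 70.2 in BL6 and 40.9 and 69.1 in NOD, which overlapped between the strains. Tested were 17 genes, 14 with a positive and 3 with a negative log2 difference (median 0.61, against 0.04 over all genes tested), and none was called. With enough PETs in both numbers were 6 genes, and the 4 higher within both were Tap1, Tap2, Psmb8 and H2-T3. In replicate number 1, Tap2, Psmb8 and H2-T3 reached 20 PETs only in NOD (20, 20 and 22, against 9, 11 and 0 in BL6). The filter thus favoured a rise for these genes, and their number is no separate result beside the 2.72% over all such genes. The class II genes H2-Aa (4 and 51 PETs in BL6, 0 and 5 in NOD), H2-Ab1 (8 and 68 in BL6, 0 and 17 in NOD) and H2-Eb1 (7 and 56 in BL6, 0 and 16 in NOD) had fewer PETs in NOD. These are PETs and not levels, and the second BL6 library was the deepest. In replicate number 1 these genes had under 20 PETs in BL6 and none listed in NOD, too few for the 2-fold comparison. The class I genes H2-Q6 (0 and 21), H2-Q7 (0 and 14) and H2-Q10 (3 and 31) had PETs in BL6 and none listed in NOD. Tap1 and Tap2 encode the partner chains of the peptide transporter into the endoplasmic reticulum, and Psmb8 a subunit of the immunoproteasome. Their levels are shown with those of the other named genes in the plot by library. Tap1 (chr17:34187556-34197225) had levels of 255.0 and 134.0 in BL6 and 552.0 and 306.0 in NOD, from 20, 80, 27 and 73 PETs. Tap2 had levels of 115.0 and 175.0 in BL6 and 409.0 and 461.0 in NOD. Psmb8 had levels of 140.0 and 125.0 in BL6 and 409.0 and 339.0 in NOD. All 3 lie next to each other and share interactions, so they are not independent. Their log2 differences were 1.15 ± 0.69 (SE) for Tap1, 1.55 ± 0.62 for Tap2 and 1.49 ± 0.62 for Psmb8, with an edgeR adjusted p of 1.00 for each. Their Smc1 counts went lower in NOD for Tap1 (35 and 36 PETs in BL6, 14 and 3 in NOD) and were mixed for Tap2 and Psmb8. H2-T3, a non-classical class I gene that encodes the thymus leukaemia antigen, had 0 and 13 PETs in BL6 and 22 and 111 in NOD (edgeR adjusted p = 0.755). The F1 library gave 14 PETs at H2-T3 in its BL6 mapping and 18 in its NOD mapping. The MHC haplotype itself differs between the strains, and class I genes have near-identical copies.

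**Figure D5:**
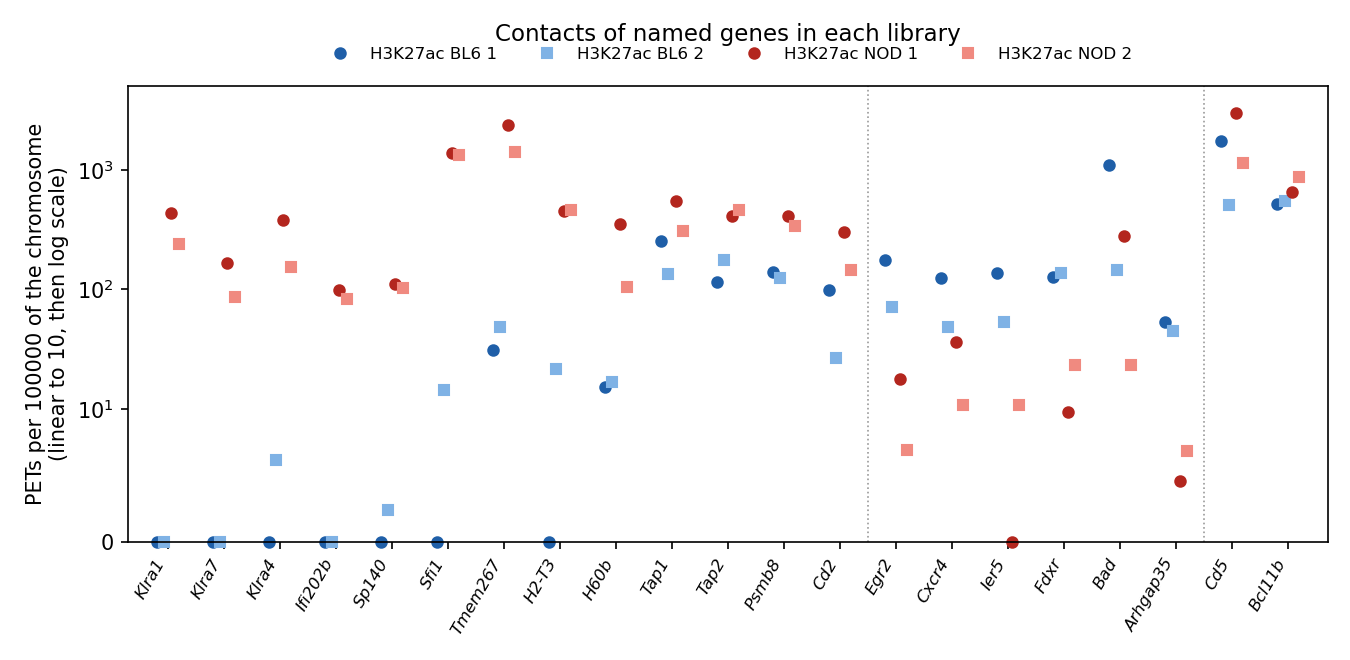
Levels of named genes (PETs per 100000 PETs of the chromosome, linear up to 10 and logarithmic above) in each H3K27ac library, with genes higher in NOD on the left, lower in NOD in the middle and highly connected thymocyte genes on the right. NOD points lie above BL6 points from Klra1 to Cd2, as in Tap2 with 409.0 and 461.0 against 115.0 and 175.0, and within each replicate number NOD lies below BL6 from Egr2 to Arhgap35.

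Some genes of T cell surface receptors and transcription factors were higher in NOD within both numbers. Cd2, an adhesion receptor of T cells, had 15 and 14 PETs in BL6 and 27 and 29 in NOD, with levels of 99 and 26.5 against 302.0 and 145.0. Its log2 difference was 1.88 ± 0.91 (SE), with an edgeR adjusted p of 1.00. Ccr9, the thymic homing receptor for the chemokine Ccl25, had 2 and 21 PETs in BL6 and 30 and 23 in NOD, with levels of 5.27 and 29.5 against 72.8 and 76.7. Gfi1, a zinc finger repressor of thymocyte development, had levels of 15.2 and 53.6 in BL6 and 44.5 and 112.0 in NOD, and these ranges overlapped. Nr4a3, an orphan nuclear receptor induced by receptor signalling, had a level of 30.6 in each BL6 library and 89.3 and 79.6 in NOD. Il27ra, a chain of the interleukin 27 receptor, had levels of 112.0 and 192.0 in BL6 and 266.0 and 423.0 in NOD. H60b, a ligand of the activating receptor NKG2D, had 2 and 11 PETs in BL6 and 40 and 30 in NOD, and its F1 counts were nearly equal on the 2 genomes (26 and 25). Its levels were 15.3 and 16.8 in BL6 and 354.0 and 104.0 in NOD. None of these genes passed the test, with an edgeR adjusted p of 1.00 for each. Cd2 and H60b reached 20 PETs only in NOD in both numbers. Ccr9, Gfi1 and Nr4a3 did so only in NOD in number 1. The filter thus favoured a rise for these genes, and their being higher within both numbers is no separate result. Il27ra reached 20 PETs in every library.

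Egr2 led the genes lower in NOD within both numbers. Egr2, a zinc finger factor induced by T cell receptor signals and needed in positive selection (chr10:67534469-67542188), had 23 and 47 PETs in BL6 and 2 and 2 in NOD. Its levels were 175.0 and 71.8 in BL6 and 17.7 and 6.93 in NOD, without overlap. The log2 difference was -3.40 ± 1.20 (SE, edgeR unadjusted p = 0.0230, adjusted p = 1.00). The Smc1 libraries gave 80 and 151 PETs at Egr2 in BL6 and 70 and 62 in NOD, and the F1 library 23 and 18 on the 2 genomes. The deepest NOD anchors at Egr2, with 488 and 986 reads, covered annotated starts, while the deepest BL6 anchors, with 640 and 801 reads, lay elsewhere in the gene's windows. No single pair of bins carried the BL6 contacts of Egr2: the best supported, 200 kb long, had 9 PETs in the first BL6 library alone. The related Egr1 and Egr3 did not go the same way as Egr2 within both numbers. Egr1 had 4 and 15 PETs in BL6 and 4 and 7 in NOD. These are levels of 67.9 and 37.2 in BL6 and 131.0 and 44.9 in NOD, higher in NOD within both numbers but from few PETs. Egr3 had 0 and 26 PETs in BL6 and 12 and 3 in NOD.

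Cxcr4, the receptor for Cxcl12 that keeps immature thymocytes in the cortex (chr1:128588199-128592299), had 55 and 41 PETs in BL6 and 14 and 4 in NOD. Its levels were 125.0 and 48.5 in BL6 and 36.4 and 10.7 in NOD, and the groups did not overlap. The start of Cxcr4 was nevertheless under a deepest-1% anchor in all 4 libraries, with 1567 and 2099 reads in BL6 and 1036 and 1746 in NOD. Part of the BL6 contacts joined the gene to a stretch 150 to 225 kb away. The pair of bins 150 kb apart had 10 and 8 PETs in BL6 and 4 in the first NOD library, that 200 kb apart had 5 and 14 PETs in BL6 and none listed in NOD, and that 225 kb apart had 7 and 9 in BL6 and none listed in NOD. The log2 difference was -1.85 ± 0.88 (SE), with an edgeR adjusted p of 1.00. The Smc1 counts at Cxcr4 were 100 and 30 in BL6 and 43 and 20 in NOD.

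Other genes lower in NOD had varied roles. Like Egr2 and Cxcr4, those named here as lower within both numbers reached 20 PETs only in BL6. The filter thus favoured a fall for them. Fdxr, which encodes the ferredoxin reductase of mitochondrial electron transfer (chr11:115268024-115277101), had 47 and 113 PETs in BL6 and 4 and 9 in NOD. Its levels were 126.0 and 136.0 in BL6 and 9.77 and 23.5 in NOD, on the chromosome where the Sfi1 region takes the share of NOD PETs given above. The bin that holds Grin2c and part of Fdxr was joined to the bin 25 kb away by 18 and 35 PETs in BL6 and none listed in NOD. These PETs cannot be assigned to Fdxr alone. The deepest BL6 anchors in the windows of Fdxr, with 1215 and 1465 reads, lay nearer its lower end and not at a start. The deepest NOD anchors, with 737 and 1294 reads, covered an annotated start. Fdxr had the smallest unadjusted p among the named lower genes, 0.00454, with an edgeR adjusted p of 1.00 and a log2 difference of -2.97 ± 0.75 (SE). Ier5, an immediate early gene, had 60 and 45 PETs in BL6 and 0 and 4 in NOD. Bad, a death-promoting member of the Bcl2 family, had 41 and 52 in BL6 and 6 and 3 in NOD, but its levels overlapped because the libraries differ in their share of chromosome 19 (1090 and 146.0 in BL6, 279.0 and 23.2 in NOD). Arhgap35 had 23 and 32 PETs in BL6 and 2 and 2 in NOD. H2bu2, a histone H2B gene, had 21 and 33 in BL6 and 2 and 2 in NOD, and Tbc1d19 had 21 and 47 in BL6 and 2 and 4 in NOD. Adamts16, of the Irx region above, had 29 and 41 PETs in BL6 and 0 and 3 in NOD. For Fdxr, Ier5, Bad, Arhgap35 and Tbc1d19 the F1 library gave near-equal counts on the 2 genomes, as with 29 and 29 for Fdxr and 48 and 46 for Arhgap35. Il2, the T cell growth factor gene within a diabetes locus of NOD, had too few PETs for the test, with 4 and 19 in BL6 and none listed in NOD. It was chosen after its values were seen.

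Members of the thymocyte lists went both ways between the strains. Of the 45 tested genes of T cell receptor signalling, 27 had a positive and 18 a negative log2 difference, with a median of 0.41 against 0.04 over all genes. The median ratios within the numbers were -0.62 and 0.20, on opposite sides of 0, and of 25 genes with enough PETs only Cd2 was 2-fold the same way in both. Of 44 thymocyte transcription factors tested, 19 were positive and 25 negative (median -0.08), with Gfi1 and Nr4a3 higher and Egr2 lower within both numbers. Of 28 double-positive stage genes tested, 15 were positive and 13 negative (median 0.06). Of the 21 with enough PETs, Ccr9, Cd2 and Mns1 were at least 2-fold higher and Cxcr4 lower within both numbers, and 5 went opposite ways, against 2.72%, 3.20% and 4.92% of all such genes. Cd8a and its neighbour Cd8b1 were both among the 5. They are joined by contacts and are not independent, so the share of opposite ratios is not read as a trait of the list. Cd8a had levels of 533.0 in BL6 and 147.0 in NOD among the libraries numbered 1, and 43.1 and 140.0 among those numbered 2. Cd4 had levels of 429.0 in BL6 and 166.0 in NOD among the libraries numbered 1, and 171.0 and 230.0 among those numbered 2. Rag1, of the recombinase, had 7 and 23 PETs in BL6 and 7 and 2 in NOD, and its partner Rag2 had 8 and 30 in BL6 and 10 and 13 in NOD. Of 7 cohesin and CTCF genes tested, 6 were positive (median 0.43), and of 25 histone acetylation genes 13 were positive (median 0.03). Of 30 cytokine genes tested 15 were positive (median -0.03), and of 35 type 1 diabetes candidates 20 were positive (median 0.15). Of 20 chemokine and migration receptors tested, 12 were positive (median 0.28). Of 23 selection and survival genes, 11 were positive (median -0.02). Of 17 tested members of strain-polymorphic families, a list chosen for families such as Ly49 and Ifi200, 11 were positive. Of 11 with enough PETs, 8 were higher within both numbers, against 2.72% of all such genes. Each of the 8 had under 20 PETs in both BL6 libraries and so entered through NOD alone. Their rise thus followed from the filter and is no separate result. Among the other cell types the medians ran from -0.22 for mature T cell markers to 0.35 for thymic epithelial markers. Not a single member of any list was called by edgeR.

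Pairs of bins joined in all 4 libraries lay at genes of many kinds, some of them thymocyte genes. The best supported, by the library with the fewest PETs, lay within Mad1l1 on chromosome 5, with 132 and 43 PETs in BL6 and 44 and 29 in NOD. Next came a pair without genes on chromosome 19, with 39 and 39 PETs in BL6 and 25 and 36 in NOD. Others among the best supported lay at Ldlrad3, Ccdc88c, Pitpnm2 and Kremen1 and between Kdm8 and Il21r. The Cd5 and Cd6 locus of chromosome 19, which encodes a pair of related inhibitory coreceptors, had 66 and 183 PETs at Cd5 in BL6 and 64 and 149 in NOD, and 126 and 212 at Cd6 in BL6 and 74 and 187 in NOD. Contacts between the Cd6 bins 50 kb apart had 18 and 32 PETs in BL6 and 28 and 33 in NOD. Bcl11b, a factor that fixes T cell identity (chr12:107910403-108004145), had levels of 518.0 and 551.0 in BL6 and 652.0 and 874.0 in NOD, a log2 difference of 0.51 ± 0.72 (SE, edgeR adjusted p = 1.00). Its bin was joined over 875 kb to a distal stretch by 12 and 36 PETs in BL6 and 12 and 8 in NOD. Cd8b1 and Cd8a, the coreceptor genes, were joined over 75 kb by 46 and 17 PETs in BL6 and 26 and 36 in NOD. Ripor1 and Ctcf were joined over 25 kb by 77 and 23 PETs in BL6 and 31 and 45 in NOD. Ets1, a factor needed for thymocyte survival, was joined over 225 kb to a gene-free bin by 48 and 30 PETs in BL6 and 17 and 15 in NOD. The pairs held by all 4 libraries spanned a median of 325.0 kb, against 800.0 kb for pairs in any.

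Whether contact distances overlapped between strains depended on how interactions were weighted. The median distance, weighted by PETs, was 606.2 and 641.1 kb in BL6 and 465.1 and 612.9 kb in NOD, means of 624.0 ± 24.7 (SD, n = 2) and 539.0 ± 105.0, and the ranges overlapped (exact permutation test, two-sided, p = 0.667). Over interactions, each counted once, the median was 773.0 and 807.2 kb in BL6 and 543.6 and 767.4 kb in NOD, without overlap (exact permutation p = 0.333, the smallest possible). Contacts of 200 to 500 kb took 19.41% and 20.84% of PETs in BL6 and 26.95% and 21.25% in NOD, also without overlap (exact permutation p = 0.333). Among interactions of at least 3 PETs the difference of the means was reversed. There the shares were 28.27% and 29.29% in BL6 and 21.18% and 29.61% in NOD, with overlap. Contacts of 1 to 2 Mb took 30.1% and 32.1% of PETs in BL6 and 23.2% and 30.4% in NOD, with overlap, and 37.16% and 39.36% of interactions in BL6 and 26.21% and 36.91% in NOD, without overlap. The first NOD library stood apart in both classes. The first Smc1 library of NOD had a median distance of 455.0 kb, against 541.0 to 588.4 kb in the other Smc1 libraries of the 2 strains. The labels do not tie these libraries to each other beyond strain and number. Across 11886 genes, the H3K27ac and Smc1 log2 differences between strains had a Pearson correlation of 0.22 and a Spearman correlation of 0.06, a description across genes that share mapping genomes.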

How the data were processed

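Each sample was deposited by the authors as a table of interactions. Per the file headers, it gives the PETs of an interaction and the reads at each anchor as counts, without normalization, with deposited p-values and q-values beside them. As checked on the values, every listed interaction stays on 1 chromosome, has 2 PETs or more and a q-value of at most 0.05. The build is GRCm38 and the tools are MACS, Juicer 1.7.6 and HiC-Pro, per the submitters' processing notes, which give the tools no role. Groups followed the labels' fields for strain and antibody.

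PETs were summed per gene, 25 kb bin and 1 Mb window with Python 3.11.15, pandas 2.3.3 and NumPy 2.4.6. An interaction counted once per gene and once per bin its midpoints fell in. The main test was the quasi-likelihood test of edgeR 4.0.16 (R 4.3.3), with the log of each library's PETs on the chromosome as offset, the default expression filter and Benjamini-Hochberg adjustment at 0.05. The scripts were tested on simulated counts. DESeq2 1.42.0, other filters, windows and left-out libraries were alternatives. Adjusted p-values are over all genes or bins tested. With 2 libraries per strain, permutation p-values cannot go below 0.333. PETs without molecular identifiers are not independent molecules.

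Named genes were up to 8 higher and 8 lower within both replicate numbers by the smaller of the 2 ratios, list members that were so, the 10 genes of highest level and the 4 highest members of each thymocyte list. Clone-type names and neighbours within 100 kb were passed over among those chosen by ratio or by highest level. Others are named as examples of a list, window or anchor class, and were chosen after their values were seen. Members and gene lists were chosen with earlier results of these data known. Gene coordinates are of RefSeq, GRCm38.p6. The RefSeq start table holds 16456 of the 20661 protein-coding genes, and contacts used windows around both gene ends.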

Additional observations from a re-analysis of the deposited data

Results flagged for a closer look

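Pairs with midpoints under 10 kb apart, which no comparison above used, held 11 bins of 25 kb with at least 20 PETs in both NOD libraries and none listed in either BL6 library. A signal in data outside the main measurement and absent from the BL6 libraries led to this entry. The deepest was chr2:98650001-98675000, without a protein-coding gene, with 1278 and 1813 PETs in NOD. The 3 bins of Sfi1 on chromosome 11 followed, with 973 and 1088 PETs in the deepest of them. Next was chr17:39825001-39850000, without a protein-coding gene (436 and 484). Others held Laptm5 (31 and 47) and the histone genes H4c14, H3c13 and H2bc18 (23 and 35). The reverse, at least 20 PETs in both BL6 libraries and none in NOD, held for 15 bins. The deepest of these, at Pcsk7, Tagln and Sidt2 on chromosome 9, had 58 and 69 PETs in BL6. Pairs under 10 kb were listed in 12165 bins over the 4 libraries, and 3 bins had at least 20 PETs in all 4.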

How the results depend on the processing

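The count of genes called, 0 in the main test, was 30 with DESeq2, 19 without an expression filter and 15 with the replicate block, and 0 to 5 with 1 library left out. For 25 kb bins, also 0 in the main test, it was 50, 45 and 15 in the same order, and 0 to 20 with 1 library left out (20 without the second NOD library). All 15 genes called under the replicate block were higher in NOD, among them Klra1, Klra4, Klra7, Ifi202b, Sp140, Mroh2a and H2-T3. With bins of 1 Mb the replicate block called 76, of which 62 were lower in NOD, and the fit without the block called 0. The deviations of same-numbered libraries from their group means correlated at 0.372 over 11963 genes, but 2 pairs do not settle whether the numbers pair the samples. Where 1 library was left out, the lone library of its strain was assumed to vary like the others.

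Genes at least 2-fold higher in NOD within both numbers fell in count from 155 to 16 with at least 50 PETs and 59 with at least 3 PETs per interaction, and lower genes from 182 to 20 with at least 50 PETs, where only 462 genes were eligible. Windows of 1 Mb lower in NOD numbered 119, and 51 with at least 3 PETs per interaction, 58 with at least 50 and 10 with at least 200 PETs, 205 at 500 kb, 54 at 2 Mb, 243 when chosen by at least 200 PETs in each Smc1 library and 14 when chosen by at least 20 PETs in the NOD library of each number. Higher windows numbered 7, and 14 with at least 3 PETs per interaction and 20 at 500 kb. The gene-start difference of 21.5 points was 13.0 for the deepest 5% of anchors, 7.96 for 10% and 0.95 for all anchors, and 17.4 to 25.6 with 1 library left out. The difference in the share of chromosomes 16 to 19 was -1.27 points and ran from -6.43 to 3.90 with 1 library left out, reversing without the second BL6 library (3.69) or the first NOD library (3.90). Of 352 values of 30 named genes under the alternatives, 0 changed direction and 33 passed the threshold where the main test did not. With 1 library left out, log2 differences kept their sign but not their size: they ran from -4.63 to -0.23 for Bad, -2.98 to -1.03 for Cxcr4, -4.05 to -2.63 for Egr2, -3.72 to -2.47 for Fdxr, 0.34 to 2.33 for Gfi1, 1.14 to 3.03 for Cd2, 1.33 to 3.74 for Ccr9, 0.69 to 1.66 for Tap1, 1.31 to 1.92 for Tap2 and 1.36 to 1.63 for Psmb8. Depth limits genes with few PETs, since a listed interaction needs 2. The cause of these changes was not tested.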
